A study of Mus musculus with 42 samples.

Results

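Granulosa cells are the somatic cells that surround and nourish the oocyte in the ovarian follicle, and Sertoli cells are their counterpart in the testis tubule. Granulosa cell identity was followed here through 10 genes that mark or maintain this cell type: the transcription factors Foxl2, Nr5a2 and Runx1, the hormone and growth factor receptors Fshr, Lhcgr, Amhr2 and Bmpr1b, the secreted WNT pathway ligands Wnt4 and Rspo1, and the gap junction protein Gja1. The genes were chosen by symbol for their known roles, with earlier results of these data known but by no rule on their values, and all 10 were found among the 22186 genes of the expression table. The study asked how bisphenol S (BPS), an endocrine-disrupting chemical used in place of bisphenol A, acts on different cell types, and RNA-seq gave the expression of these genes in 42 mouse libraries, 3 in each of 14 groups.

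The granulosa and Sertoli groups were the main ones. Granulosa cells came from preantral follicles picked by hand from about 5 littermate females at postnatal day 20, and Sertoli cells from the testes of about 5 littermate males of the same age. Each preparation was pooled, grown in its own medium (the Sertoli medium contained retinoic acid) and divided into 6 flasks, of which 3 received 1 µM BPS in ethanol and 3 received the ethanol vehicle alone for 24 h, followed by 24 h without exposure. The 3 replicates of a group were therefore flasks of 1 pooled culture, and the p-values measure the spread between flasks, not between animals. Between granulosa and Sertoli cells, the cell type, the sex, the tissue, the medium and the preparation cannot be told apart. The other groups were induced pluripotent stem cells (iPSCs) exposed to the vehicle or to 1, 50 or 100 µM BPS, directly exposed primordial germ cell-like cells (PGCLCs, sorted on 2 surface proteins, with a chase of 8 h) at 0 or 1 µM, and a propagation experiment with iPSCs exposed to the vehicle or 1 µM BPS and the PGCLCs derived from them. The iPSCs were a single male line made from fibroblasts of 1 fetus with a doxycycline-driven cassette of reprogramming factors.

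In the embryonic ovary RSPO1 and WNT4 stabilize β-catenin and so favour the ovarian fate of the supporting cells, together with RUNX1 and FOXL2. FOXL2 then keeps granulosa cells from acquiring Sertoli features after birth, whereas NR5A2 drives steroid synthesis and ovulation genes. Follicle-stimulating hormone acts on growing follicles through FSHR. Within the granulosa lineage, the luteinizing hormone receptor LHCGR appears late, in the mural cells of large follicles. AMHR2 and BMPR1B receive signals of the TGF-β family, and GJA1 (connexin 43) forms the channels that couple granulosa cells with each other.

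All 10 genes were matched to the RefSeq annotation of GRCm38.p6, the build of the study's alignment. Foxl2 lies on chr9:98955607-98958126, Nr5a2 on chr1:136842562-136960448, Runx1 on chr16:92601466-92826074, Amhr2 on chr15:102445002-102454640, Bmpr1b on chr3:141837135-142169585 and Gja1 on chr10:56377300-56390419. Wnt4 (chr4:137277635-137299501) and Rspo1 (chr4:124986401-125009102) share a chromosome at a distance of 12268532 bases. The 2 gonadotropin receptor genes are neighbours on the minus strand of chromosome 17, Lhcgr at chr17:88716384-88792059 and Fshr at chr17:88984952-89200675, with 192892 bases between them. An annotated antisense gene, Gm26626, overlaps an exon of Runx1, and the strand setting of the counting was stated in no source at hand, so reads of the 2 cannot be told apart with certainty.

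The promoters of 5 genes are shown because the results turn on them: Foxl2 and Nr5a2 had the largest differences between granulosa and Sertoli cells, Lhcgr and Fshr are neighbours that went opposite ways, and Amhr2 is the receptor whose level was close in both cell types. Each sequence is a 300-base RefSeq window around an annotated start on the gene's own strand (Foxl2 chr9:98955357-98955656 plus, Nr5a2 chr1:136960399-136960698 minus, Lhcgr chr17:88791965-88792264 minus, Fshr chr17:89200626-89200925 minus, Amhr2 chr15:102445117-102445416 plus). Another annotated window of Nr5a2, chr1:136953581-136953880, is not shown and held none of the motifs looked for. Capitals mark 2 copies of a GATA motif (AGATAA) in Nr5a2, a RUNX motif (TGTGGT) in Lhcgr and an NR5A half-site (CAAGGTCA) in Amhr2, on either strand.
Foxl2: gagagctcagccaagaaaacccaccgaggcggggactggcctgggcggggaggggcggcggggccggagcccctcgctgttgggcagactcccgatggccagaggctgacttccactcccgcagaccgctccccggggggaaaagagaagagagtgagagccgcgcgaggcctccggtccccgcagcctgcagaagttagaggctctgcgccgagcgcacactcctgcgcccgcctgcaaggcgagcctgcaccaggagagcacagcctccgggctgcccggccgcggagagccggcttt
Nr5a2: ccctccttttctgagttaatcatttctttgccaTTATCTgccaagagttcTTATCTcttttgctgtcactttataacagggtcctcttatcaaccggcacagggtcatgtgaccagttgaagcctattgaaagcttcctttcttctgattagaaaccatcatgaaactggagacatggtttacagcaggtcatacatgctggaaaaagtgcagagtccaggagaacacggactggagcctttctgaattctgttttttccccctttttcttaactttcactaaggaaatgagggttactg
Lhcgr: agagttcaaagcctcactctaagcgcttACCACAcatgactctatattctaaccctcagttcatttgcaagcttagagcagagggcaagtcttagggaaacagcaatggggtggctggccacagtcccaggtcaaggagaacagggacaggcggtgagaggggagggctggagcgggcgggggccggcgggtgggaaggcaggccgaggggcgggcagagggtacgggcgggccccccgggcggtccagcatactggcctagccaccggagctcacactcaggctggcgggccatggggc
Fshr: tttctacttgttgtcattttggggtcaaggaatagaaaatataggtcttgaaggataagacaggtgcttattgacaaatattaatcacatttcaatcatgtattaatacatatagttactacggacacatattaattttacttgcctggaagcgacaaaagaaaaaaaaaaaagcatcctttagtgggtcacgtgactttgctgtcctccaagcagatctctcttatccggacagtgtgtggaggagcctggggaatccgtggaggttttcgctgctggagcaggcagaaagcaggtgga
Amhr2: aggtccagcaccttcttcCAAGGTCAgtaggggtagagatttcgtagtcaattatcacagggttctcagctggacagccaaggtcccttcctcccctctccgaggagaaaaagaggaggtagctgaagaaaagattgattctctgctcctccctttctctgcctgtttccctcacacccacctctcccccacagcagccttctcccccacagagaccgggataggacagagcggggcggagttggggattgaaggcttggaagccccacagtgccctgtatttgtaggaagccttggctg

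Over the 14 windows annotated for the 10 genes, the NR5A half-site was found for Amhr2 alone, as in 1.56% of all 32851 mouse promoter windows of this length. The GATA motif was found for Nr5a2 and Gja1 (11.2% of all windows) and the RUNX motif for Lhcgr and Runx1 (16.8%). None of the 14 windows held the letters of the forkhead motif TGTTTAC (3.65% of all), the TCF/LEF motif CTTTGAT (3.73%), the SMAD motif GTCTAGAC (0.213%) or the cAMP response element TGACGTCA (1.79%). Foxl2 had a GC content of 71.3% with 27 CpG dinucleotides, and Fshr 40.7% with 6, beside a median over all windows of 52.7% and 7.

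Depth as recovered from the deposited values was 26693847 to 44524376 reads per library, and 28870702 to 39955477 in the 12 granulosa and Sertoli libraries, so that 3 reads summed over a group, taken as the floor for a group at 0, corresponded to about 0.0295 to 0.0366 CPM (CPM being the read count scaled by the authors to a common library size) there. The libraries matched the sex of their labels: Xist was at 740 to 789 CPM in granulosa and at 0.0702 to 0.27 CPM in Sertoli libraries, and Ddx3y at 0 to 0.0294 against 119 to 128 CPM. Differences are given as log2 differences of the deposited log2 CPM values with their standard errors, and a gene was called where limma's p, adjusted by the Benjamini-Hochberg method over all genes tested, did not exceed 0.05. In these bulk samples fewer cells of a type and less RNA per cell cannot be told apart.

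Of the transcription factors, Foxl2 and Nr5a2 had the largest differences between granulosa and Sertoli cells among the 10 genes, and Runx1 a small one. Foxl2 was at 138, 144 and 140 CPM in the granulosa vehicle flasks and at 0.371, 0.449 and 0.077 CPM in the Sertoli vehicle flasks. All 3 granulosa flasks lay far above all 3 Sertoli flasks, where Foxl2 had only 25 reads in total. The log2 difference was 8.99 ± 0.41 (SE), the 7th largest increase among 16248 genes (adjusted p = 5.23e-10, limma). Its size depends on the value added before the log, since Sertoli cells were near 0, and it ranged from 5.07 to 9.39 over 17 alternatives, all called.

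Nr5a2, a nuclear receptor that binds DNA as a monomer, was at 158, 171 and 163 CPM in granulosa flasks and at 0.334, 0.207 and 0.501 CPM in Sertoli flasks. The groups did not overlap, and the log2 difference of 8.83 ± 0.21 was the 10th largest increase of all genes (adjusted p = 1.09e-12, limma), with 5.27 to 9.12 over 17 alternatives. Nr5a2 was not particular to granulosa cells in the series, however. It stood at 130, 130 and 129 CPM in vehicle iPSCs, where it is known as an activator of Pou5f1, and at 56.1, 58.3 and 57.7 CPM in vehicle PGCLCs.

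Runx1 differed little between the 2 somatic cell types. It was at 41.4, 41.3 and 42.3 CPM in granulosa and at 30.7, 32.6 and 29.1 CPM in Sertoli flasks, with every granulosa value above every Sertoli value. The log2 difference was 0.44 ± 0.05 (adjusted p = 2.58e-06, limma).

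The gonadotropin receptors went opposite ways. Lhcgr had 2.5, 3.9 and 2.49 CPM in the granulosa flasks (285 reads) and 0 reads in all 6 Sertoli flasks. Against the floor of 3 reads over the Sertoli vehicle group, Lhcgr was at least 81.2-fold higher in granulosa cells (adjusted p = 3.29e-09, limma). The fitted log2 difference of 6.55 depends on the value added before the log and is no bound (0.79 to 7.32 over 16 alternatives).

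Fshr was instead lower in the cells labelled granulosa. It was at 0.324, 0.584 and 0.444 CPM there (43 reads in all) and at 3.82, 4.67 and 3.31 CPM in Sertoli cells, which also respond to follicle-stimulating hormone. The groups did not overlap, and the level was 8.73-fold higher in Sertoli cells (log2 difference -3.06 ± 0.24, adjusted p = 1.19e-07, limma). Under 16 alternatives the log2 difference ranged from -3.26 to -0.83 and was called in each of the 16.

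Both receptors of the TGF-β family were well expressed in granulosa cells, and 1 of them was shared with Sertoli cells. Bmpr1b, a type I receptor for bone morphogenetic proteins, was at 43.1, 45.8 and 42.3 CPM in granulosa and at 0.482, 0.38 and 0.578 CPM in Sertoli flasks. This was a 91.1-fold difference without overlap (log2 6.44 ± 0.14, adjusted p = 4.8e-13, limma), with log2 differences of 3.41 to 6.57 over 17 alternatives. Amhr2, the type II receptor for anti-Müllerian hormone, was at 58.8, 59.8 and 57.4 CPM in granulosa and at 57.9, 52.8 and 45.4 CPM in Sertoli flasks. The groups overlapped, and the log2 difference of 0.18 ± 0.07 was called (adjusted p = 0.0303, limma) but did not hold in 7 of 17 alternatives. It was lost under median-ratio scaling (adjusted p = 0.0512), with the 12 somatic libraries in 1 fit (0.108) and with all 42 in 1 fit (0.391, all limma). Without Sertoli vehicle replicate 3 it was 0.085 (adjusted p = 0.112), and it was not called without Sertoli replicate 2 (0.0544) or without granulosa replicate 1 or 2 (0.068 and 0.0896, all limma).

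Neither WNT pathway ligand was markedly higher in granulosa cells. Wnt4 was at 61.2, 56.7 and 55.5 CPM in granulosa and at 73.4, 73.9 and 66.3 CPM in Sertoli flasks. The Sertoli flasks were all higher, with a log2 difference (granulosa minus Sertoli) of -0.30 ± 0.05 (adjusted p = 1.28e-04, limma). Rspo1, which raises WNT signalling by protecting its receptors at the cell surface, was low in both, at 0.707, 1.2 and 0.956 CPM in granulosa flasks (91 reads) and 0.705, 0.864 and 0.347 CPM in Sertoli flasks (53 reads). The groups overlapped, and the log2 difference of 0.62 had a 95% confidence interval from -0.13 to 1.36 (adjusted p = 0.117, limma). Without Sertoli vehicle replicate 2 it was 0.87 and was called (adjusted p = 0.0478, limma).

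Gja1 had the highest level of the 10 genes in granulosa cells, at 892, 945 and 892 CPM, against 47.2, 49 and 50.4 CPM in Sertoli flasks. The difference was 18.6-fold (log2 4.22 ± 0.03, adjusted p = 1.63e-16, limma), with the smallest standard error of the 10. On a scale corrected for exon length, Gja1 also led in granulosa cells with 88.7 CPM per kilobase, ahead of Foxl2 with 43.1, Amhr2 with 29.3 and Nr5a2 with 27.8 CPM per kilobase. Lhcgr (0.388), Rspo1 (0.492) and Fshr (0.191 CPM per kilobase) formed the low end. In Sertoli cells the order was led by Amhr2 with 26 and Wnt4 with 17 CPM per kilobase.

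**Figure D1:**
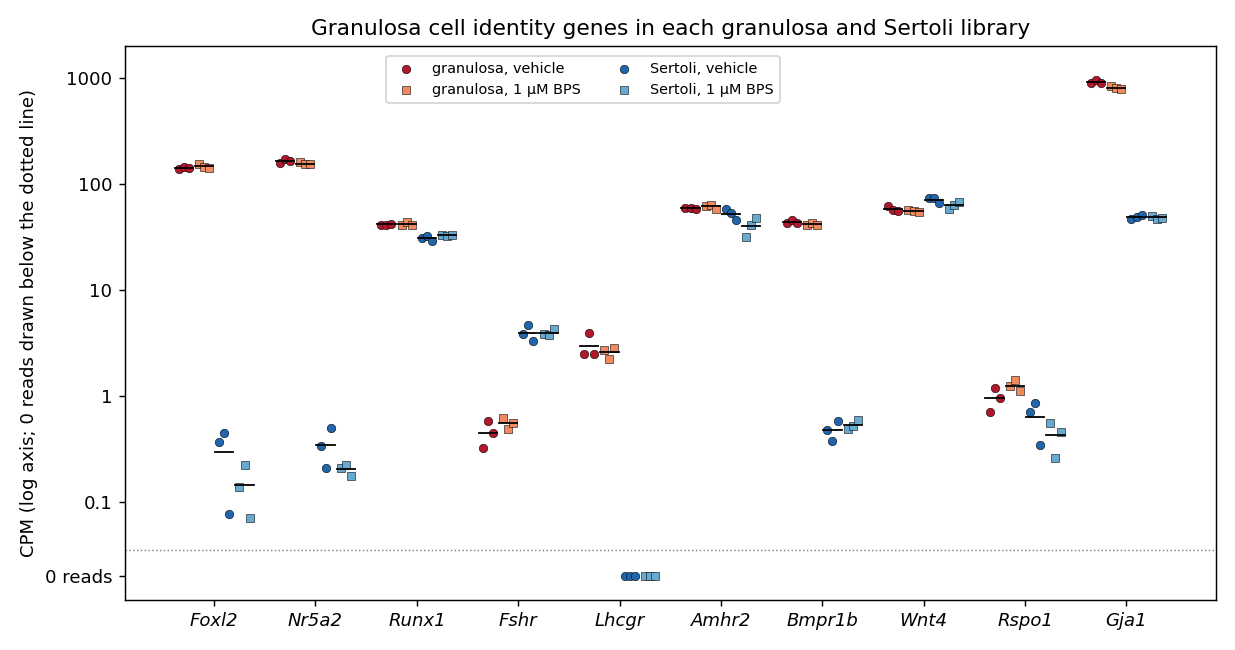
CPM of each of the 10 genes in every granulosa and Sertoli library, on a log axis, with points for libraries, colours and shapes for groups, and a short line for the mean of each group, libraries with 0 reads being drawn below the dotted line. Foxl2, Nr5a2, Bmpr1b, Lhcgr and Gja1 are far higher in granulosa than in Sertoli libraries, Amhr2, Wnt4 and Runx1 lie close together, and Fshr lies higher in the Sertoli libraries.

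Of the 10 genes, 7 were called higher and 2 lower in granulosa than in Sertoli cells, and Rspo1 was not called. The 2 cultures differed in most genes, since 78.7% of all 16248 genes tested were called, 40.6% higher and 38.1% lower. For 8 of the 10 genes the groups did not overlap, as for 80.7% of all genes. By size, 5 of the 10 genes had a log2 difference of at least 4, and 1.79% of all genes were called at this size. Foxl2, Nr5a2, Bmpr1b and Lhcgr, however, passed the filter only through the granulosa flasks, here and in BPS. Large differences in their favour were thus built in, and the count is no independent support. It also depends on the value added before the log, with lowest log2 differences of 0.79 for Lhcgr and 3.41 for Bmpr1b over the alternatives. The median difference was 2.42 over the 10 genes and 0.0261 over all genes tested. Summed over the 10 genes, the level was 1395 to 1469 CPM in granulosa vehicle and 196 to 215 CPM in Sertoli vehicle flasks, most of it Gja1, Nr5a2 and Foxl2 in the former.

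The same comparison in BPS-exposed cells gave the same direction for all 10 genes. Here 8 genes were called higher and 2 lower (79.3% of all 16116 genes were called, 41% higher and 38.3% lower). Foxl2 differed by 9.80 ± 0.23 and Nr5a2 by 9.38 ± 0.11 on the log2 scale, and Lhcgr was at least 72.3-fold higher in granulosa cells. Fshr again was lower in granulosa cells, by a log2 difference of -2.77 ± 0.19, and Wnt4 by -0.19 ± 0.05, the latter not called after rescaling to the upper quartile (-0.086, adjusted p = 0.115, limma), a scaling that shifts the median of all genes by 0.102. Rspo1 was called in this comparison, at 1.23, 1.4 and 1.12 CPM in granulosa and 0.558, 0.262 and 0.456 CPM in Sertoli flasks (log2 1.54 ± 0.29, adjusted p = 1.62e-04, limma). That its difference between the cell types depended on exposure was not shown (interaction 0.93 ± 0.47, adjusted p = 0.394, limma).

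**Figure D2:**
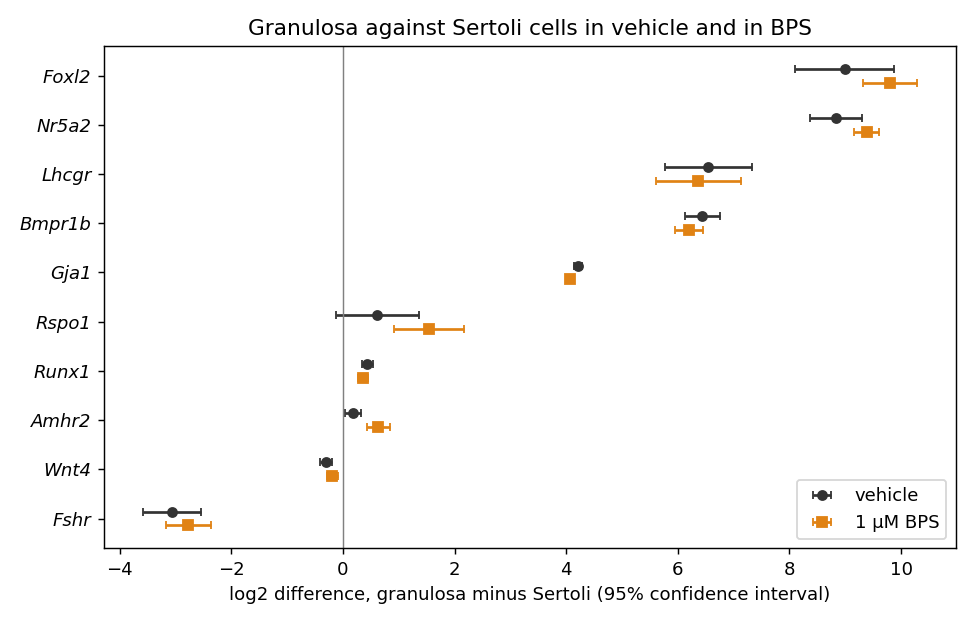
Log2 difference of each gene between granulosa and Sertoli cells in vehicle (circles) and in 1 µM BPS (squares), with 95% confidence intervals. Values right of 0 are higher in granulosa cells, and each gene lies on the same side of 0 in both exposures, from Foxl2 with 8.99 and 9.80 to Fshr with -3.06 and -2.77.

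Other genes of the same cell types and pathways were counted in the same comparison, where 40.6% of all genes were higher and 38.1% lower. Of 23 further granulosa genes tested, 17 were higher and 6 lower in granulosa vehicle cells, with a median log2 difference of 2.43. Hsd17b1, an enzyme of estradiol synthesis, was at 139 against 8.96 CPM, Inhba, the activin A subunit, at 1081 against 104 CPM, and Fst, which binds activin, at 73 against 5.48 CPM. Gatm, an enzyme of creatine synthesis, went the other way with 38.3 against 980 CPM.

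Of 26 Sertoli genes tested, 21 were lower and 5 higher in granulosa cells (median log2 difference -3.99). Dmrt1, which maintains the male fate of Sertoli cells, had 0 reads in granulosa vehicle cells and 71.5 ± 4.68 CPM (SD, n = 3) in Sertoli cells. Sox9, the factor that FOXL2 opposes, was at 19.5 against 336 CPM, and Cldn11, a tight junction protein of the Sertoli barrier, at 0.749 against 1508 CPM. Dhh, Sox8, Aard and Gstm6 were also lower, with log2 differences of -4.46, -5.09, -8.84 and -6.69. Among markers chosen here for the labels, Foxl2 was thus high in the cells labelled granulosa, and Sox9, Dmrt1 and Cldn11 in those labelled Sertoli. However, Fshr, Gatm and 5 other granulosa genes of the 23 were lower in the cells labelled granulosa, and 5 Sertoli genes were higher there. The study itself identified the cultures by protein staining, with FSHR and INHA for granulosa cells and SOX9 and WT1 for Sertoli cells.

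Of 10 gonadal factors that both cell types share, 5 were higher and 3 lower in granulosa cells, beside 40.6% and 38.1% of all genes. Nr5a1 was at 134 against 129 CPM and Gata4 at 347 against 350 CPM, neither called, and both were named after their values were seen. Emx2 was at 87.2 against 10.1 CPM, whereas Wt1 was at 55.4 against 377 CPM, Nr0b1 at 0.3 against 9.86 CPM and Gata6 at 59.4 against 80.5 CPM.

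Around Wnt4 and Rspo1, 27 genes of the WNT and R-spondin pathway were tested. Of these, 19 were higher and 7 lower in granulosa cells, beside 40.6% and 38.1% of all genes. Sfrp2, which binds WNT proteins, was at 80 against 0.921 CPM, Dkk3 at 102 against 3.75 CPM and the transcription factor Tcf7l1 at 25.2 against 2.67 CPM. Axin2, a feedback target of β-catenin, was lower at 7.96 against 29 CPM, and was named after its value was seen.

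Around Amhr2 and Bmpr1b, 24 genes of the BMP and AMH pathway were tested. Of these, 17 were higher and 3 lower, beside 40.6% and 38.1% of all genes. The ligand gene Bmp2 was at 45.7 against 1.84 CPM, and the target genes Smad6, Id3 and Id1 were at 136 against 25.2, 260 against 69.5 and 138 against 38.6 CPM. Amh, the ligand of AMHR2, was lower in granulosa than in Sertoli cells at 0.708 ± 0.0801 against 7.49 ± 1.91 CPM (SD, n = 3), and was likewise named after its value was seen.

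Around Fshr, Lhcgr and Nr5a2, 25 genes of gonadotropin and cAMP signalling and of the ovulatory response were tested. Of these, 14 were higher and 9 lower, beside 40.6% and 38.1% of all genes, with a median log2 difference of 0.12. Cyp11a1, the enzyme of the first step of steroid synthesis, was at 650 against 14.8 CPM, and Ptgs2, which makes prostaglandins at ovulation, at 125 against 22.6 CPM. Ereg, an EGF-like factor, and the adenylate cyclase Adcy7 were lower at 15.5 against 85.1 and 24.2 against 131 CPM.

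Of 5 RUNX partners and relatives, Tle1, Runx2 and Runx1t1 were higher and Tle3 and Cbfb lower, beside 40.6% and 38.1% of all genes. Runx2 was at 36.8 against 18.7 CPM and Cbfb, which binds DNA together with RUNX proteins, at 135 against 181 CPM.

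Markers of other ovarian and testicular cells also moved between the cultures, where 40.6% of all genes were higher and 38.1% lower. Their part in the differences was not tested. Of 13 theca and stroma markers, 11 were tested and all 11 were higher in granulosa cells, with a summed level of 3140 to 3387 CPM against 875 to 958 CPM. Col1a1 was at 1311 against 636 CPM, Col3a1 at 1498 against 109 CPM, Nr2f2 at 123 against 11.6 CPM and Pdgfra at 121 against 61.9 CPM, while the theca enzymes Cyp17a1 and the hormone gene Insl3 were near 0 in both (0.553 and 0.0433 CPM in granulosa cells). Smooth muscle markers were 4 higher and 2 lower of 7, at 2964 to 3041 against 1594 to 1723 CPM in sum. Of the 7 Leydig markers, 4 were tested, with 2 higher and 2 lower in granulosa cells, at 1315 to 1467 against 194 to 200 CPM in sum. Hsd3b1, also an enzyme of granulosa cells, was at 574 against 0.532 CPM.

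Immune markers were low in sum, at 20.7 to 25.6 against 10.1 to 13 CPM over 8 genes, with Ptprc at 0.408 and Adgre1 at 1.24 CPM in granulosa cells. Of 6 tested, 5 were higher and 1 lower in granulosa cells, beside 40.6% and 38.1% of all genes. Endothelial markers summed to 19.4 to 24.5 against 16.1 to 16.7 CPM. Oocyte markers were at 1.35 to 5.94 CPM in sum in granulosa vehicle flasks, with Zp1, Zp2 and Zp3 below 0.4 CPM on average. Testicular germ cell markers were lower in granulosa cells for 8 of 8 genes (4.68 to 7.19 against 40.9 to 45.4 CPM in sum), and surface epithelium markers were 4 higher and 3 lower of 7, with Msln at 11.9 against 686 CPM.

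Compared with the 2 vehicle groups of pluripotent and germ cell-like cells, the granulosa level was higher for 8 of the 9 genes tested in each case. In the comparison with iPSCs 91.3% of all genes were called, 44.6% higher, and in that with PGCLCs 88.7%, 43.1% higher. Fshr was not tested, with 0 reads in the vehicle iPSCs and 0 in the vehicle PGCLCs, and its 43 reads in granulosa cells made it at least 12.8-fold and 13.8-fold higher. Rspo1 was not called in either comparison and was almost level, at 0.954 CPM in granulosa cells, 0.807 CPM in iPSCs and 0.845 CPM in PGCLCs.

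The remaining genes fell into those absent and those present in the other cells. Foxl2 was at 0.164 CPM in iPSCs and 0.35 CPM in PGCLCs (log2 differences of 9.49 ± 0.11 and 8.56 ± 0.16), and Bmpr1b at 0.13 and 0.744 CPM. Lhcgr had 1 read over the 3 iPSC libraries, a ratio of 254 with a counting interval from 45.2 to 10073, and 4 reads in PGCLCs. Nr5a2 was higher in granulosa cells than in iPSCs by only 0.34 ± 0.03 on the log2 scale (adjusted p = 7.49e-06, limma), and than in PGCLCs by 1.51 ± 0.03. Wnt4 was at 0.0833 CPM in iPSCs and at 14.4 CPM in PGCLCs. Gja1 was at 70.3 CPM in iPSCs and at 158 CPM in PGCLCs, beside 48.8 CPM in Sertoli cells and 42.4 CPM in the vehicle iPSCs of the propagation experiment.

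Ordered by their mean level over the 14 groups, 6 of the 10 genes had both granulosa groups at the top with no overlap with any other group: Foxl2, Nr5a2, Lhcgr, Gja1, Bmpr1b and Runx1. The same held for 12.2% of 19591 genes with at least 0.5 CPM in 3 libraries. For Foxl2 the 2 granulosa groups (146 and 140 CPM) overlapped each other and the next were the derived PGCLCs with 0.992 and 0.745 CPM. For Runx1 the Sertoli groups followed with 32.6 and 30.8 CPM, then the derived PGCLCs with 16.2 and 13.4 CPM, the directly induced PGCLCs and the iPSCs of the dose series with 3.23 to 6.07 CPM, and last the iPSCs of the propagation experiment with 0.835 and 0.701 CPM. Nr5a2 was lowest in Sertoli cells, below all iPSC groups (115 to 130 CPM) and all PGCLC groups (47.3 to 60.3 CPM).

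Amhr2 was highest in granulosa cells (61.4 and 58.7 CPM), but the vehicle granulosa range overlapped that of vehicle Sertoli cells, and the groups other than granulosa and Sertoli cells lay between 1.52 and 4.16 CPM. Wnt4 was highest in the 2 Sertoli groups (71.2 and 62.8 CPM), followed without a gap by vehicle granulosa cells, and Fshr in the same 2 groups (3.95 and 3.93 CPM). Rspo1 ranged from 0.425 to 1.25 CPM over all 14 groups, and most neighbouring groups in its order overlapped. Beside Sertoli cells, no group had Fshr above 0.555 CPM, and beside granulosa cells, no group had Lhcgr above 0.0438 CPM.

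**Figure D3:**
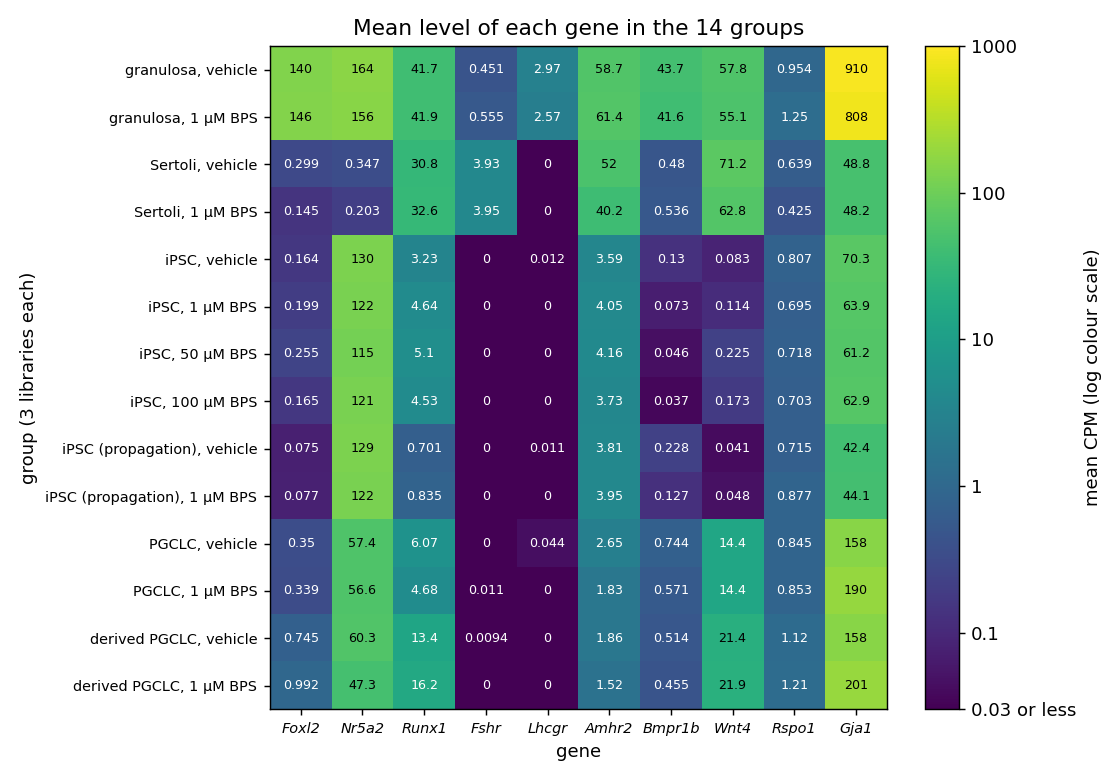
Mean CPM of the 10 genes (columns) in the 14 groups (rows, 3 libraries each), on a log colour scale with the value printed in each cell. Foxl2, Lhcgr and Bmpr1b are high in the granulosa rows alone, Nr5a2 is also high in the iPSC and PGCLC rows, and Fshr is brightest in the Sertoli rows.

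Among 17579 genes, those whose 14 group means on the log2 scale were most like each member were taken as a description over groups that share cell types. For Foxl2 these were Col10a1 (Pearson's r = 0.989), Foxl2os (0.989), the transcript named as opposite to Foxl2, and Bmp3 (0.988). Foxl2os was at 86.8 CPM in granulosa vehicle cells and at 0.0593 CPM in Sertoli cells. Gja1 was most like Sfrp2 (0.982), Lhcgr most like Apoa4 (0.997), Bmpr1b most like Smim13 (0.984) and Nr5a2 most like Gpr162 (0.993). For the genes shared with Sertoli cells, the likest were Adcy9 (0.994) and Star (0.994) for Amhr2, Clcn5 (0.996) for Wnt4 and 4732440D04Rik (0.983) for Runx1.

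Exposure of granulosa cells to 1 µM BPS changed 1 of the 10 genes. Gja1 was at 837, 806 and 782 CPM in exposed flasks, all below the 892, 945 and 892 CPM of the vehicle flasks. The log2 difference was -0.17 ± 0.03 (adjusted p = 0.00339, limma), a ratio of mean CPM of 0.889. It was called under 16 of 17 alternatives, with log2 values from -0.20 to -0.14, and not in a single fit of all 42 libraries (adjusted p = 0.228, limma). As background, 2.6% of the 15712 genes tested were called in this comparison. The study, testing with edgeR, reported far fewer genes in both granulosa and Sertoli cells. It listed no gene as lower in granulosa cells, so the decrease of Gja1 was not among its calls.

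The other 9 genes overlapped between exposed and vehicle granulosa flasks and were not called, and 19.9% of all genes had no overlap. Foxl2 was at 153, 144 and 141 CPM after exposure (log2 difference 0.06, 95% confidence interval -0.01 to 0.13), and Nr5a2 at 160, 153 and 154 CPM (-0.08, interval -0.14 to -0.01, adjusted p = 0.249, limma). For Amhr2, Wnt4, Bmpr1b and Runx1, the intervals reached no further than 0.16 from 0. For the low genes they were wider, at -0.33 to 0.96 for Fshr, -0.07 to 0.88 for Rspo1 and -0.53 to 0.18 for Lhcgr.

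The list counts that follow stand beside 2.6% of all 15712 genes called in exposed granulosa cells. Of the further granulosa genes, 2 of 23 were called after BPS exposure, both lower: Hsd17b1 (-0.12, adjusted p = 0.036) and Inhbb (-0.35, adjusted p = 6.8e-05, both limma), the latter named after its value was seen. No gene of the WNT list (27 tested) or the BMP list (24 tested) was called in granulosa cells. In the gonadotropin list 1 gene was higher and 3 were lower of 24 tested, among them Ptgs2 (-0.24, adjusted p = 0.016, limma). Smooth muscle markers were higher for 4 of 7, Acta2 by 0.16, and their summed level was 3263 to 3431 CPM in exposed and 2964 to 3041 CPM in vehicle flasks. Surface epithelium markers (2 of 7 higher, 60.8 to 71.4 against 56.3 to 59.4 CPM in sum) and Sertoli genes (1 of 22 higher, 3200 to 3516 against 2946 to 3099 CPM) also had higher sums without overlap, and germ cell specification markers a lower one (1 of 3 lower, 25.8 to 29.1 against 30.6 to 36.6 CPM). The part of these lists in the result was not tested.

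In Sertoli cells, exposure to 1 µM BPS changed 1 of the 7 genes tested, with 5.24% of all 15648 genes called. Amhr2 was at 31.7, 41.3 and 47.5 CPM in exposed flasks and at 57.9, 52.8 and 45.4 CPM in vehicle flasks. The groups overlapped, since exposed replicate 3 lay above vehicle replicate 3, as they did for all 7 genes (25.6% of all genes had no overlap). The log2 difference of -0.39 ± 0.10 was called (adjusted p = 0.0348, limma), but not without exposed replicate 1 (-0.22, adjusted p = 0.182) or 2 (-0.42, 0.0943), nor without vehicle replicate 1 (-0.31, 0.0719) or 2 (-0.37, 0.125, all limma). In the same flasks the summed level of 8 testicular germ cell markers was 30.5 to 35.9 against 40.9 to 45.4 CPM, with 1 of 8 called lower. Theca and stroma markers were lower for 3 of 10 (750 to 839 against 875 to 958 CPM), Sertoli genes for 5 of 23 (10039 to 11155 against 11636 to 12068 CPM), germ cell specification markers for 1 of 2 (45.7 to 47.7 against 51.9 to 56 CPM) and other granulosa genes for 4 of 20, and the part of these lists was not tested.

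Wnt4 lay just outside the threshold in Sertoli cells, at 57.7, 63.9 and 66.9 CPM against 73.4, 73.9 and 66.3 CPM (log2 difference -0.18 ± 0.05, adjusted p = 0.0515, limma). It was called in 9 of 17 alternatives. Gja1, which fell in granulosa cells, was level in Sertoli cells at 50.2, 47.1 and 47.4 CPM against 47.2, 49 and 50.4 CPM (-0.02, 95% confidence interval -0.11 to 0.07). Fshr was level as well (3.84, 3.74 and 4.28 against 3.82, 4.67 and 3.31 CPM), and Foxl2, Nr5a2 and Lhcgr were too low to be tested.

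Whether the response to BPS differed between granulosa and Sertoli cells was tested as an interaction in the 12 libraries. By limma no member of the 10 was called, 3 had an unadjusted p under 0.05 and limma-voom on recovered reads called 0, beside 1.28% of all 16791 genes called and 14.1% at such an unadjusted p. The difference in response was 0.45 ± 0.14 for Amhr2 (adjusted p = 0.139), -0.15 ± 0.05 for Gja1 (0.154) and 0.55 ± 0.26 for Nr5a2 (0.346, all limma), so that neither the decrease of Gja1 in granulosa cells nor that of Amhr2 in Sertoli cells was shown to be particular to its cell type. Without Sertoli vehicle replicate 2 Nr5a2 was called (0.84, adjusted p = 0.0334), without Sertoli vehicle replicate 3 Foxl2 (1.48, 0.0278) and without exposed Sertoli replicate 3 Amhr2 (0.58, 0.0219, all limma). Foxl2 and Nr5a2 passed the filter of this fit only through the granulosa flasks. In vehicle and exposed Sertoli flasks Foxl2 had 25 and 12 reads and Nr5a2 28 and 17 reads. Their interaction values therefore rest on Sertoli counts near 0 and give no measure of a Sertoli response.

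In the iPSC dose series 5 of the genes were high enough to be tested, and Runx1 rose at every dose. It was at 3.28, 3.26 and 3.14 CPM in vehicle, 4.67, 4.35 and 4.92 CPM at 1 µM, 4.45, 5.97 and 4.88 CPM at 50 µM and 4.46, 5.08 and 4.07 CPM at 100 µM. All 9 exposed libraries lay above all 3 vehicle libraries, which the 3 comparisons share. At 1 µM the groups also did not overlap for Amhr2, Nr5a2 and Gja1, which were not called. Lack of overlap alone therefore does not set a gene apart in this series, where the share of all genes without overlap is not given. The log2 differences were 0.52 ± 0.12 (adjusted p = 0.0109), 0.64 ± 0.12 (7.27e-04) and 0.48 ± 0.12 (0.00556, all limma), and the call at 1 µM was lost without exposed replicate 3 (0.48, adjusted p = 0.0581, limma).

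Markers of other cell types moved in the same iPSC libraries, and their part was not tested. Of all 16349 genes, 8.54%, 26.4% and 30.7% were called at 1, 50 and 100 µM, in either direction. Germ cell specification markers were lower for 3, 3 and 4 of 7 at 1, 50 and 100 µM, with sums of 137 to 153 CPM over the exposed and 179 to 182 CPM over the vehicle libraries. Surface epithelium markers were higher for 2 of 4 at each dose (33.9 to 58 against 24.3 to 30 CPM in sum) and Sertoli genes for 4, 6 and 5 of 13 (355 to 388 against 316 to 331 CPM). The sum of the 7 pluripotency markers overlapped, at 4853 to 4991 against 4827 to 4937 CPM.

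Gja1 was lower in iPSCs by -0.14 ± 0.05 at 1 µM (adjusted p = 0.0993, not called), by -0.20 ± 0.05 at 50 µM (0.00709) and by -0.16 ± 0.05 at 100 µM (0.0231, all limma). Its values were 69.9, 69.1 and 72.1 CPM in vehicle and 58.4 to 66.8 CPM over the 9 exposed libraries, without overlap. The call at 100 µM was lost without any of 4 libraries, exposed replicates 1 (adjusted p = 0.0919) and 3 (0.0603) and vehicle replicates 1 (0.0588) and 3 (0.0824, all limma). Nr5a2 was called at 50 µM alone (-0.18 ± 0.06, adjusted p = 0.033, limma), at 120, 121 and 104 CPM against 130, 130 and 129 CPM, and not without exposed replicate 3 (-0.10, 0.216) or without vehicle replicate 1 (0.0862), 2 (0.0921) or 3 (0.0696, all limma). Of the 5 genes, 1, 3 and 2 were called at 1, 50 and 100 µM, beside 8.54%, 26.4% and 30.7% of all 16349 genes.

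Directly exposed PGCLCs showed 3 calls among 7 genes tested (26.6% of all 16342 genes were called), and in these 3 the groups did not overlap (41.3% of all genes). Gja1 rose, from 158, 159 and 158 CPM to 180, 203 and 186 CPM (log2 0.26 ± 0.04, adjusted p = 2.08e-04, limma). The sign is opposite to that of its differences in granulosa cells and in iPSCs of the dose series. Whether these responses differ was not tested. Runx1 fell from 5.81, 6.47 and 5.92 CPM to 4.4, 4.84 and 4.8 CPM (-0.37 ± 0.10, adjusted p = 0.0117), not called without vehicle replicate 2 (0.0615) or in the fit of all 42 libraries (0.1, all limma). Amhr2 was at 1.88, 1.34 and 2.27 CPM against 2.8, 2.73 and 2.42 CPM (-0.56 ± 0.18, adjusted p = 0.0342, limma), and this call was lost without exposed replicate 2 (-0.355, 0.154) or without vehicle replicate 1 (0.107), 2 (0.106) or 3 (0.0559, all limma). In these libraries 7 of 7 pluripotency markers were lower (2205 to 2463 against 2832 to 2908 CPM in sum), as were 4 of 7 germ cell specification markers (224 to 259 against 268 to 277 CPM) and 3 of 7 testicular germ cell markers tested (96 to 105 against 122 to 128 CPM in sum over 8) and 5 of 14 Sertoli genes, and their part in the result was not tested.

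**Figure D4:**
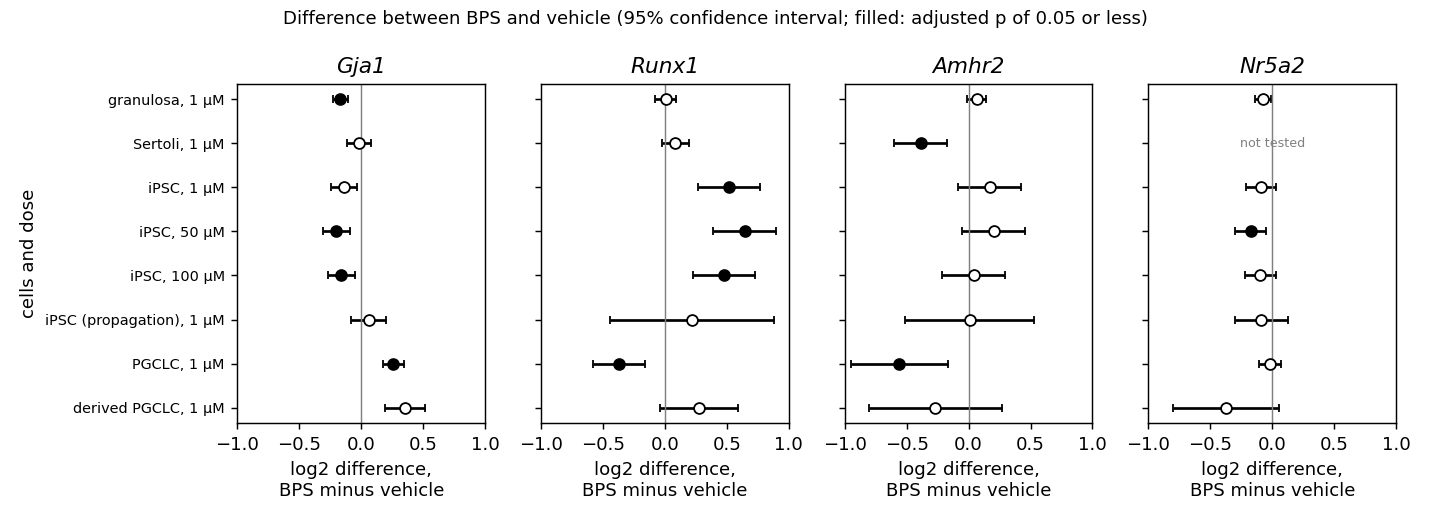
Log2 difference between BPS and vehicle with its 95% confidence interval for Gja1, Runx1, Amhr2 and Nr5a2 in 8 comparisons, filled where the adjusted p was 0.05 or less (Nr5a2 was not tested in Sertoli cells). Gja1 lies below 0 in granulosa cells and in iPSCs of the dose series and above 0 in PGCLCs, and Runx1 lies above 0 at all 3 doses in iPSCs and below 0 in PGCLCs.

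The propagation experiment gave no call among the 10 genes. In its iPSCs limma called 0 of 5 genes tested, none had an unadjusted p under 0.05 and limma-voom called 0, beside 0.0128% of all 15572 genes called and 11.2% at such a p. Runx1 was at 0.662, 0.587 and 0.853 CPM in vehicle and 0.604, 0.793 and 1.11 CPM after 1 µM BPS there, a level below that of the dose series also in vehicle cells. Gja1 averaged 44.1 CPM (43.3 to 45.4) after exposure and 42.4 CPM (41.8 to 42.7) in vehicle in these iPSCs, without overlap. Its log2 difference was 0.06, with a 95% confidence interval from -0.08 to 0.20 (adjusted p = 0.643, limma). In the dose series Gja1 was lower at 1 µM without being called (log2 difference -0.14, adjusted p = 0.0993, limma). That lower level was not seen here at the same dose. The higher doses, at which its decrease was called, were not part of the propagation experiment. In PGCLCs derived from exposed iPSCs limma called 0 of 7 genes, and 0% of all 16268 genes, with 15.8% of all genes and 1 of the 7 at an unadjusted p under 0.05, and 0 of the 7 called by limma-voom. The gene with this low p was Gja1, at 190, 223 and 191 CPM in PGCLCs from exposed and 155, 152 and 166 CPM in PGCLCs from vehicle iPSCs (log2 0.35 ± 0.07, adjusted p = 0.194, limma), groups that did not overlap. In a single fit of all 42 libraries Gja1 was called there (adjusted p = 0.000115, limma). Foxl2 was at 1.19, 0.789 and 0.991 against 0.69, 0.983 and 0.562 CPM (0.42, 95% confidence interval -0.23 to 1.06), and Wnt4 at 27.8, 19.7 and 18.2 against 17.6, 29.7 and 16.9 CPM, both with overlapping groups. The study, testing with edgeR, reported many differentially expressed genes in both the iPSCs and the derived PGCLCs of this experiment. Why its counts differ from those here was not tested.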

How the data were processed

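RNA was measured in 42 mouse libraries. Per the study's methods, the authors sequenced poly(A) RNA on a directional kit, aligned the paired reads to mm10 with Rsubread and scaled them with edgeR's TMM method. The table deposited by the authors holds log2 CPM values with 0.0313 CPM added before the log, while its annotation, strand setting, low-count filter and the versions of Rsubread and edgeR were stated in no source at hand. Reads were recovered from these values, at least 99.9% of them whole within 0.05 reads, and totalled 26693847 to 44524376 per library with TMM factors of 0.878 to 1.11. The number of reads limits the precision of low genes, and floors and counting intervals cover counting error only.

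The 10 genes and all other lists were chosen with earlier results of these data known. Samples were grouped by their titles. Genes with at least 0.5 CPM in 3 libraries of a fit were tested two-sided with limma 3.58.1 (R 4.3.3, trended empirical Bayes) on the log2 values as deposited, with Benjamini-Hochberg adjustment over all genes tested. Each comparison used its own 6 libraries, the iPSC doses shared 1 fit of 12 libraries, and the interaction used the 12 granulosa and Sertoli libraries. CPM means, SDs and folds were computed after removing the added value. Because the deposited values are not counts, count models were not the main test, and limma-voom on the recovered reads was an alternative. Other alternatives were the value added before the log, the filter, the scaling, a replicate block, wider fits and leaving out each library in turn. The script was tested on simulated data.

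All 10 genes were named. From every other list, at most 4 called genes with the smallest adjusted p between vehicle granulosa and Sertoli cells, the first 3 genes of a marker list, and up to 3 genes most alike over the 14 group means were eligible, and any other gene named by value was chosen after its value was seen. Genes of the lists without a row in the table, such as Cyp19a1, were not analysed here. A list of other connexins is not reported here. Positions and promoter windows came from RefSeq on GRCm38.p6. Libraries of 1 group differed by more than sampling noise (lowest mean chi-square 2.09). Shared replicate numbers did not pair the flasks.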

Additional observations from a re-analysis of the deposited data

How the results depend on the processing

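Over all comparisons, 388 of 434 recounts of called members stayed within 1.5 times the reported count, and 977 of 1031 recomputed log2 differences kept their direction and their side of the threshold. With a filter of 5 CPM, which leaves fewer genes to test, 1 member was called lower between granulosa and Sertoli cells in vehicle and 1 in BPS, 2 were lower in exposed Sertoli cells, 0 were higher in iPSCs at each dose, and 1 was lower in PGCLCs. A single fit of all 42 libraries gave 1 lower in both cell type comparisons (Wnt4 was lost, adjusted p = 0.578 and 0.741, limma), 0 lower in exposed granulosa cells, 1 and 2 lower in iPSCs at 50 and 100 µM and 1 higher in derived PGCLCs. Upper-quartile scaling gave 1 lower between the cell types in BPS, 2 lower in exposed Sertoli cells, and 1 and 0 lower in iPSCs at 50 and 100 µM. In exposed Sertoli cells 2 were also called lower with 0.25 CPM added, median-ratio scaling and limma-voom, and 3 with the 12 somatic libraries in 1 fit. Without a filter 1 was lower in PGCLCs. For these counts the cause was not tested beyond the fewer genes of the filter.

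With the replicate block, 2 members instead of 1 were lower in exposed Sertoli cells (Wnt4 adjusted p = 0.0395, limma), and the block changed no other count of members by over 1.5 times. Over all genes it gave 1298 calls instead of 820 in exposed Sertoli cells and 0 instead of 2 in the iPSCs of the propagation experiment. The flasks share only a number (correlations of same-numbered granulosa deviations were -0.112 to -0.016).

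With each library left out in turn, the counts ranged from 0 to 2 lower in exposed Sertoli cells, 0 to 1 higher in the interaction, 0 to 1 higher and 0 to 1 lower in iPSCs at 1 µM, 1 to 2 lower at 50 µM, 0 to 1 lower at 100 µM and 0 to 2 lower in PGCLCs. The differences that changed sign were uncalled in each fit. Rspo1 against PGCLCs ranged from -0.038 to 0.330, and with granulosa exposure Lhcgr ranged from -0.287 to 0.034 and Runx1 from -0.024 to 0.029, with -0.013 for Runx1 under median-ratio and -0.015 under upper-quartile scaling. With Sertoli exposure Fshr ranged from -0.097 to 0.148, with -0.009 under upper-quartile scaling, and Gja1 from -0.048 to 0.004. Depth limits Fshr, Rspo1 and Lhcgr most, with 43, 91 and 285 reads over the vehicle granulosa flasks.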
